A study of Mus musculus with 12 samples.

Results

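The 10 genes *Mfn1*, *Mfn2*, *Opa1*, *Dnm1l*, *Fis1*, *Mff*, *Rhot1*, *Rhot2*, *Trak1* and *Trak2*, which join, divide and move mitochondria, were read in laser-microdissected substantia nigra pars compacta (SNpc) of 1 week-old mice. They were chosen by name for these roles and make up 10 of 54193 genes in the files. All 10 were among the 18017 genes with a mean normalized read count of at least 10, a count scaled for the depth of each library, and were tested.

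The study asked which transcripts differ before neurodegeneration between a strain in which loss of 1 copy of *Engrailed-1* (*En1*) is followed by loss of dopaminergic neurons and a strain in which it is not. The groups were OF1-En1+/- (SwissOF1 background), OF1 WT, C57-En1+/- (C57Bl/6J background) and C57 WT, with 3 mice each and 1 library per mouse. The En1+/- mice carried a LacZ insertion in 1 *En1* copy, the C57 line was made by backcrossing OF1-En1+/- mice to C57Bl/6J, and every mouse was labelled male. Pieces cut as nigra from cresyl violet-stained sections were amplified from low input without keeping the strand.

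Mitochondria form a network that is remade all the time. The dynamin-like GTPases encoded by *Mfn1* and *Mfn2* join outer membranes and that of *Opa1* joins inner membranes, while the GTPase encoded by *Dnm1l* (Drp1) is recruited by adaptors such as the products of *Mff* and *Fis1* and cuts the organelle. The outer-membrane GTPases Miro encoded by *Rhot1* and *Rhot2* and the adaptors encoded by *Trak1* and *Trak2* couple mitochondria to kinesin and dynein, and dopaminergic neurons, with long and branched axons, are known to depend on this transport.

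The libraries differed in depth and in markers, and 10 of them were low in dopaminergic markers. Library depth was between 13570749 and 28294254 estimated reads in OF1-En1+/-, 13538864 and 30927714 in OF1 WT, 20030280 and 37754338 in C57-En1+/- and 61433970 and 168741283 in C57 WT mice. *Th*, the enzyme gene that defines dopaminergic neurons, reached normalized counts of 87319 in SW22 (OF1-En1+/-) and 118022 in C572S (C57 WT), whereas no other library exceeded 1387. *En1* was at 701 in SW22 and 1038 in C572S, with a maximum of 15.4 elsewhere, so it gave no check of the genotype labels. C57-En1+/- mouse C572 had 1368 of *Xist* and 0 of the Y-linked *Ddx3y*, against its label as male. Transcript levels per length are given as TPM, the share of a library scaled to a fixed total after division by length. Summed over 8 neuron marker genes, the level was between 3748 and 9499 TPM, lowest in SW7 (OF1 WT) and highest in C572. Summed over 4 dopaminergic marker genes it was 6464 TPM in SW22, 9591 TPM in C572S and between 9.73 and 93.7 TPM in the other 10 libraries. Summed over 4 marker genes for neurons of the subthalamic and posterior hypothalamic regions, the level was between 8.83 TPM in SWB (OF1-En1+/-) and 1349 TPM in C5743 (C57 WT). In bulk tissue, fewer cells of a type and less RNA per cell cannot be told apart.

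*Dnm1l*, *Mff*, *Opa1* and *Rhot1* had alternative coding exons whose use could be read from the transcripts, and 8 of these exons are printed because the transcript results below turn on them. All are on GRCm39 (exon positions from GENCODE release 39), written 5′ to 3′ on the strand of the gene, with the exon in capitals and 10 intron bases on each side in lower case. Each has a length that is a multiple of 3, so that skipping it keeps the reading frame. The 39-base exon of *Dnm1l* lies in the part that encodes the GTPase domain, and its 78- and 33-base exons in the part for the variable domain. In order, the exons span chr16:16160561-16160599, chr16:16136628-16136705 and chr16:16136309-16136341 on the minus strand for *Dnm1l*, chr1:82719539-82719697 on the plus strand for *Mff*, chr16:29407641-29407694 and chr16:29416404-29416514 on the plus strand for *Opa1*, and chr11:80146688-80146783 and chr11:80148340-80148462 on the plus strand for *Rhot1*.
Dnm1l 39-base exon: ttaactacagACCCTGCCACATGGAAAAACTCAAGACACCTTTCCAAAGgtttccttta
Dnm1l 78-base exon: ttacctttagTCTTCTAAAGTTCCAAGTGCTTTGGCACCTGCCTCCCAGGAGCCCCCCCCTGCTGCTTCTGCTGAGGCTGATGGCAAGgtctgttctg
Dnm1l 33-base exon: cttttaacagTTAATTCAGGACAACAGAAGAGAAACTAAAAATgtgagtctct
Mff 159-base exon: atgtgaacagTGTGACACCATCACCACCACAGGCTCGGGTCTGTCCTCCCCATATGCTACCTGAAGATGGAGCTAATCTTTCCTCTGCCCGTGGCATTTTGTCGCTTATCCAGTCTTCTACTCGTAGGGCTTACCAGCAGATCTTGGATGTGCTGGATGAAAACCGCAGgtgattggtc
Opa1 54-base exon: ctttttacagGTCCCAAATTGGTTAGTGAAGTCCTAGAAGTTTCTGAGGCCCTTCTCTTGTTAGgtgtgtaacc
Opa1 111-base exon: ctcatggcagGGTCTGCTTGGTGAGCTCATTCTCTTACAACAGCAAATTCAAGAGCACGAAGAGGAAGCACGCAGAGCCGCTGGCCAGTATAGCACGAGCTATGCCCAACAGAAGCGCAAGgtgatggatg
Rhot1 96-base exon: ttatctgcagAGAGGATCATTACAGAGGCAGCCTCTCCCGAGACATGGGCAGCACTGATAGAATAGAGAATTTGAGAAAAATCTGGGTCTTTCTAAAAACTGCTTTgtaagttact
Rhot1 123-base exon: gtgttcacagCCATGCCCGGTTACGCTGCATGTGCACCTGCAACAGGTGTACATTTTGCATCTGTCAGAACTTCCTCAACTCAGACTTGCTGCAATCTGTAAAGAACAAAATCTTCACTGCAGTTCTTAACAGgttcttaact

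Per transcript length, the fission adaptors were the most abundant of the 10. The mean TPM over the 12 libraries was 498 ± 65.3 for *Fis1* and 281 ± 78.2 for *Mff* (SD, n = 12). *Dnm1l*, the fission GTPase itself, had 113 ± 26.2 and *Mfn2* 83.4 ± 23.5 TPM. These 4 genes kept this order in 12 of 12 libraries, and each was also above *Rhot1* in all 12 libraries.

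Below them the levels ran together. *Rhot1* had 34.8 ± 9.94, *Opa1* 28.7 ± 9.13 and *Trak1* 28.5 ± 9.04 TPM (SD, n = 12). *Rhot1* was above *Opa1* in 10 of 12 libraries (median ratio 1.17), and *Opa1* above *Trak1* in 6 of 12 (median ratio 1.00). The differences between these neighbours were not tested. *Mfn1* had 16.4 ± 5.61, *Rhot2* 13.4 ± 3.00 and *Trak2* 10.1 ± 3.18 TPM. *Trak1* exceeded *Mfn1* in 11, *Mfn1* exceeded *Rhot2* in 9 and *Rhot2* exceeded *Trak2* in 11 of 12 libraries, and the ranges of all 4 overlapped.

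In each pair of related genes 1 member had the higher estimate in every library. *Mfn2* had 5.58 ± 2.23 times the TPM of *Mfn1* (range 3.48 to 11.5, SD, n = 12), and the highest ratio was in SW7. *Rhot1* had 2.63 ± 0.703 times the TPM of *Rhot2* and *Trak1* 2.89 ± 0.613 times that of *Trak2*. For *Rhot1* the order was not secure, since an overlapping gene model, *Gm20683*, shares reads with *Rhot2*. With the TPM of *Gm20683* added to that of *Rhot2*, an alternative added after seeing the data, *Rhot1* had 1.39 ± 0.273 times the sum (SD, n = 12) and was above it in 11 of 12 libraries, with 0.831 times in SW7. The ratio of *Mfn2* to *Mfn1* was 4.55 ± 1.35 in OF1-En1+/- and 7.98 ± 3.28 in OF1 WT mice, and 4.44 ± 0.402 in C57-En1+/- and 5.37 ± 1.49 in C57 WT mice (SD, n = 3 each), with overlapping ranges in both strains.

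**Figure D1:**
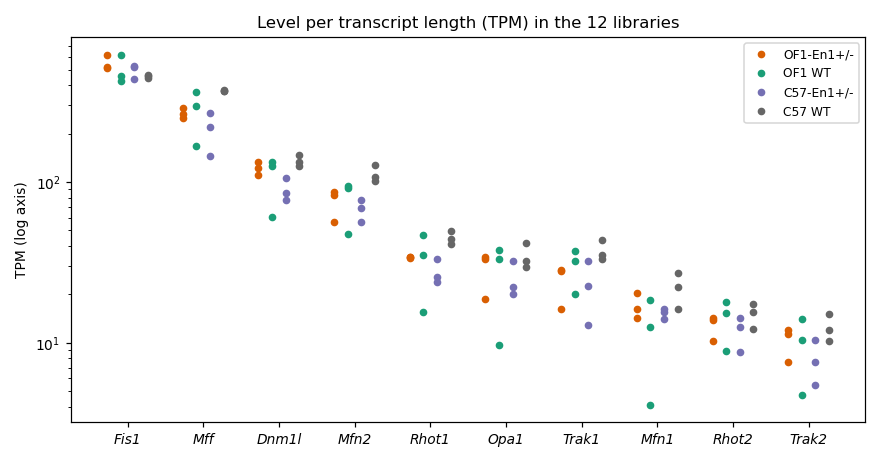
TPM (log axis) of the 10 genes, ordered by their mean, in each of the 12 libraries (points, coloured by the 4 groups of 3 mice). *Fis1* lies between 422 and 619 TPM and *Rhot2* between 8.78 and 17.9 TPM.

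On GRCm39, with the strand in parentheses, the fusion genes lie at chr3:32583599-32645888 (plus) for *Mfn1*, chr4:147955508-147989585 (minus) for *Mfn2* and chr16:29398108-29473858 (plus) for *Opa1*. The fission genes lie at chr16:16128677-16176904 (minus) for *Dnm1l*, chr5:136982101-136995089 (plus) for *Fis1* and chr1:82702582-82730684 (plus) for *Mff*. The transport genes lie at chr11:80099812-80159656 (plus) for *Rhot1*, chr17:26057427-26063825 (minus) for *Rhot2*, chr9:121126568-121303990 (plus) for *Trak1* and chr1:58939607-59013546 (minus) for *Trak2*. Annotated neighbours bear on some of the levels. *Rhot2* shares 1307 of its 4446 exon bases with *Gm20683*, a gene model on the same strand, and their mean normalized counts were 815 for *Rhot2* and 758 for *Gm20683*. Reads of the shared stretch were divided between them by estimation, so the level of *Rhot2* is uncertain. On the opposite strand, *Mfn1* shares 5448 exon bases with *Gnb4*, *Dnm1l* 3594 with *Yars2*, *Mfn2* 1245 with *Fv1* and *Trak2* 406 with *Stradb*, and without strand such reads cannot be told apart.

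One transcript carried most reads of *Opa1*, *Mfn2*, *Rhot2*, *Trak1* and *Trak2*. *Opa1-206*, which lacks both printed *Opa1* exons, held 96.2 ± 1.82% of the estimated reads of the gene (SD, n = 12), *Mfn2-204* 87.9 ± 2.90%, *Rhot2-201* 91.9%, *Trak1-201* 84.9% and *Trak2-201* 99.9%. *Fis1* was split between *Fis1-201* (66.0 ± 6.56%) and *Fis1-202* (32.4 ± 6.13%), and *Mfn1* between *Mfn1-201* (72.7 ± 13.6%) and *Mfn1-202* (26.3 ± 13.4%).

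*Dnm1l* had 3 main transcripts. *Dnm1l-203*, with the 78- and 33-base exons, held 47.4 ± 7.70% of its estimated reads (SD, n = 12). *Dnm1l-202*, with the 39-base exon, held 31.2 ± 5.84% and *Dnm1l-201*, with none of them, 19.3 ± 4.40%. Their annotated coding parts were 1761 bases in *Dnm1l-203*, 2136 in *Dnm1l-202* and 2097 in *Dnm1l-201*. *Dnm1l-203* thus also lacks coding bases outside the printed exons, and the transcripts differ by more than these exons. As a share of the TPM of the gene, transcripts with the 39-base exon made up 36.4, 29.4 and 25.7% in OF1-En1+/- mice, against 26.8, 35.0 and 33.4% in OF1 WT mice. In the other strain they made up 33.0, 41.1 and 20.1% in C57-En1+/- mice, against 24.7, 30.7 and 28.5% in C57 WT mice. The groups overlapped in both strains, and the C57-En1+/- libraries C575 and C572 were the lowest and the highest of all 12.

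*Mff* and *Rhot1* each had 3 main transcripts. *Mff-202*, with the 159-base exon, held 62.3% of the estimated reads of *Mff*, *Mff-201* 15.1% and *Mff-209* 12.1%. *Rhot1-204*, with neither printed exon, held 45.6% of those of *Rhot1*, *Rhot1-206*, with the 123-base exon, 25.6% and *Rhot1-201*, with the 96-base exon, 20.7%. The annotated coding part of *Rhot1-206* was 1300 bases, shorter than the others and not a multiple of 3. It was 1893 bases in *Rhot1-204* and 1989 in *Rhot1-201*.

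Of the 11 alternative coding exons found in these 4 genes, 3 had shares of TPM that did not overlap when C57-En1+/- mice were set against C57 WT mice. As background, 12.9% of 32494 transcripts of all genes had shares that did not overlap there. Here and below, that background counts single transcripts, whereas an exon share can add up several, so the measures are unlike. Exons of the same gene are also not separate observations. The *Mff* 159-base exon was at 44.7, 49.9 and 50.0% in C57-En1+/- mice, against 51.9, 51.9 and 54.7% in C57 WT mice. The *Rhot1* 96-base exon was at 13.0, 16.3 and 26.9% in C57-En1+/- mice, against 28.5, 29.5 and 27.1% in C57 WT mice. The *Rhot1* 123-base exon was at 41.9, 56.0 and 43.4% in C57-En1+/- mice, against 38.5, 41.6 and 39.9% in C57 WT mice. For both *Rhot1* exons the nearest libraries of the groups lay next to each other, at 26.9% in C575 and 27.1% in C5743, and at 41.9% in C5713 and 41.6% in C572S. The highest share of the 123-base exon was in C572. There the short model *Rhot1-206* held 37.8% of the estimated reads of *Rhot1*, its highest share in any library.

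None of the 11 exons had shares that did not overlap between OF1-En1+/- and OF1 WT mice, where 9.87% of transcripts had such shares, or between OF1 WT and C57 WT mice, where 13.5% had. Only the *Mff* 159-base exon was apart between OF1-En1+/- (51.1 to 60.0%) and C57-En1+/- mice (44.7 to 50.0%), where 12.1% of transcripts were. The *Opa1* 111-base exon had 6.29, 13.8 and 12.7% in OF1-En1+/- mice, against 4.12, 1.78 and 7.91% in OF1 WT mice, and the groups overlapped through SW21. In the model across all genes (edgeR diffSpliceDGE, Simes test), none of the 9 genes with 2 or more tested transcripts differed in transcript usage between OF1 and C57 mice or between En1+/- and WT mice over both strains, with every adjusted p at 1 and the smallest unadjusted p at 0.343 (*Mff*, strain) and 0.445 (*Rhot2*, genotype). Of all 9771 genes, 1.92% differed with strain and 0.44% with genotype. Usage was not tested between C57-En1+/- and C57 WT mice or between OF1-En1+/- and C57-En1+/- mice, the comparisons in which exons were apart.

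**Figure D2:**
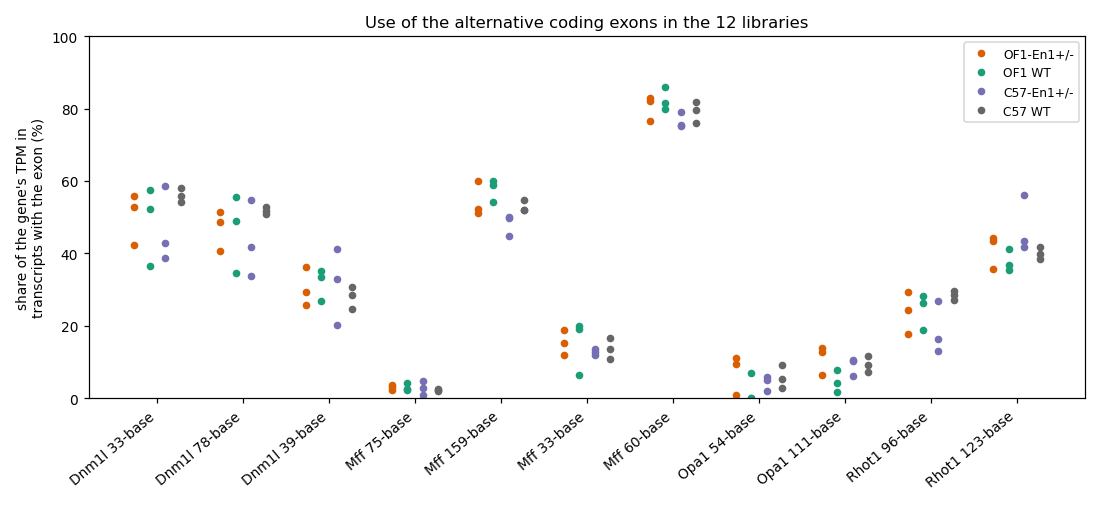
Share of the TPM of the gene (%, vertical axis) in transcripts that hold each of 11 alternative coding exons, in each of the 12 libraries (points, coloured by the 4 groups of 3 mice). The *Mff* 60-base exon is used most, between 75.3 and 85.9%, and the *Opa1* and *Mff* 75-base exons stay below 14%.

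In C57 mice, 8 of the 10 genes had lower and 2 had higher estimates in the En1+/- group, against 49.6% lower and 50.3% higher of all genes tested, but none passed the test. edgeR called 0 of the 10 and 0% of all 18017 genes at an adjusted p of 0.05, and DESeq2 called 0 of the 10 and 0.416% of the genes it adjusted. At an unadjusted p under 0.05, 1 of the 10 and 8.89% of all genes were found. The median log2 fold change was -0.31 for the 10 genes and 0.00 for all genes tested. Most of the 10 genes moved together across the libraries, as given below, so they are not separate observations in these counts.

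*Mff*, the adaptor that brings Drp1 to mitochondria, gave the smallest p. It had normalized counts of 8179.9, 6139 and 8596 in C57-En1+/- mice, against 10231, 11007 and 11889 in C57 WT mice. All 3 C57-En1+/- libraries were below all C57 WT libraries. The log2 fold change was -0.53 (SE 0.20, 95% interval -0.97 to -0.09, adjusted p = 0.539, edgeR). Without C572, the mouse whose label as male the data go against, it was -0.42.

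*Mfn2*, for outer-membrane fusion, had normalized counts of 7999, 7276 and 7672 in C57-En1+/- mice, against 8322, 11572 and 10931 in C57 WT mice. The groups did not overlap, and C572S, a library high in *Th*, was the highest. The log2 fold change was -0.43 (SE 0.23, 95% interval -0.93 to 0.08, adjusted p = 0.627, edgeR).

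*Rhot1*, the more abundant Miro gene, had 1927, 2054 and 2326 in C57-En1+/- mice, against 2888, 2748 and 2994 in C57 WT mice, again without overlap. Its log2 fold change was -0.45 (SE 0.25, 95% interval -1.01 to 0.10, adjusted p = 0.638, edgeR). *Dnm1l* had 9207, 9137 and 9857 in C57-En1+/- mice, against 10101, 12512 and 11812 in C57 WT mice. The groups did not overlap, with C5710 closest to the C57-En1+/- mice, and the log2 fold change was -0.29 (SE 0.22, 95% interval -0.76 to 0.18, adjusted p = 0.724, edgeR).

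These 4 genes, all lower in C57-En1+/- mice, were the ones of the 10 whose groups did not overlap, and 14.4% of all genes tested did not overlap in this comparison, with 6.93% of all genes lower in C57-En1+/- mice. An exact permutation test of 3 mice against 3 cannot give a p below 0.10. *Mff*, *Mfn2*, *Rhot1* and *Dnm1l* are also not separate observations. Over all libraries, Pearson's r of their log2 expression lay between 0.66 (*Mfn2* with *Mff*) and 0.86 (*Dnm1l* with *Rhot1*). *Fis1*, a fission adaptor, went the other way, at 7966, 9351 and 6032 in C57-En1+/- mice, against 5234, 5536 and 6273 in C57 WT mice. Its groups overlapped through C575, and the log2 fold change was 0.45 (SE 0.24, 95% interval -0.08 to 0.98, adjusted p = 0.621, edgeR). Of the other genes, *Trak1*, *Trak2*, *Opa1* and *Mfn1* had log2 fold changes between -0.36 and -0.18, *Rhot2* had 0.18, and every 95% interval held 0.

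**Figure D3:**
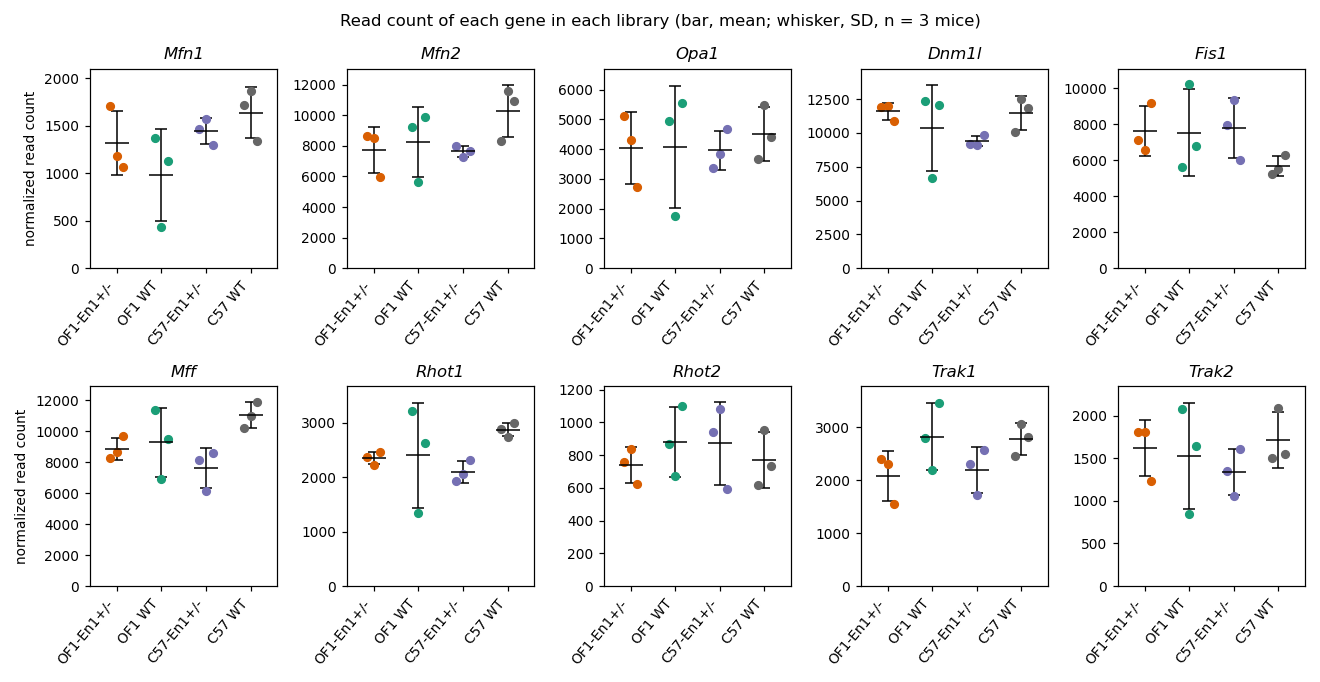
Normalized read count (vertical axes from 0) of the 10 genes in each library of the 4 groups (points, 3 mice each), with the mean (bar) and SD (whisker). *Mff* lies between 6139 and 8596 in C57-En1+/- mice and between 10231 and 11889 in C57 WT mice, and the OF1 WT mice spread widely through SW7.

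In OF1 mice the estimates of the 10 genes lay around 0. Set against OF1 WT, 4 were higher and 6 lower in OF1-En1+/- mice (49% and 50.9% of all genes tested). The median log2 fold change was -0.02 for the 10 genes and -0.01 for all genes, and for the 10 genes it was -0.27 without SW7. edgeR called 0 of the 10 and 0% of all genes, DESeq2 called 0 of the 10 and 1.18% of the genes it adjusted, and at an unadjusted p under 0.05 there were 0 of the 10 and 9.29% of all genes. None of the 10 had groups that did not overlap, against 15.8% of all genes.

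*Trak1*, an adaptor between Miro and the motors, had the largest difference with the smallest p in this strain. Its normalized counts were 2391, 2296 and 1541 in OF1-En1+/- mice, against 2796, 2196 and 3456 in OF1 WT mice. Only SW7 among the OF1 WT libraries reached the OF1-En1+/- range, and the log2 fold change was -0.44 (SE 0.23, 95% interval -0.95 to 0.07, adjusted p = 0.592, edgeR). *Mfn1* was at 1706, 1181 and 1069 in OF1-En1+/- mice, against 1368, 439 and 1132 in OF1 WT mice. The single library SW7 was the low one, and the log2 fold change of 0.43 (SE 0.35, 95% interval -0.33 to 1.19, adjusted p = 0.743, edgeR) was 0.08 without it.

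SW7 had the lowest normalized count of all 12 libraries for *Mfn1*, *Mfn2*, *Opa1*, *Dnm1l*, *Rhot1* and *Trak2*, and the highest for *Fis1*. *Mff* was at 8312, 8670 and 9678 in OF1-En1+/- mice, against 11396, 6952 and 9504 in OF1 WT mice, with a log2 fold change of -0.06 (SE 0.20, 95% interval -0.50 to 0.37, adjusted p = 0.954, edgeR). *Opa1*, *Fis1*, *Rhot1*, *Mfn2*, *Trak2*, *Dnm1l* and *Rhot2* had estimates between -0.25 and 0.16. The widest of these intervals, for *Opa1*, was -0.81 to 0.80, so differences within that range were not excluded with 3 mice per group. The groups also differed in markers of other cells. The 6 oligodendrocyte markers summed to between 1146 and 2257 TPM in OF1-En1+/- mice and between 376 and 833 TPM in OF1 WT mice. The 4 marker genes for neurons of the subthalamic and posterior hypothalamic regions summed to between 8.83 and 32.2 TPM in OF1-En1+/- mice and between 314 and 1233 TPM in OF1 WT mice. Their part in these estimates was not tested.

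The difference between the strains in the effect of genotype was tested itself. edgeR called 0 of the 10 and 0% of all genes for the interaction, DESeq2 called 0 of the 10 and 0.236%, and 0 of the 10 and 7.22% of all genes had an unadjusted p under 0.05. For *Mff*, the OF1 effect minus the C57 effect was 0.47 on the log2 scale (SE 0.28, 95% interval -0.15 to 1.09, adjusted p = 0.757, edgeR), and for *Dnm1l* 0.45 (SE 0.30, adjusted p = 0.781, edgeR). Over both strains, *Trak1* was lower in En1+/- than in WT mice by estimate (log2 fold change -0.39, SE 0.17, 95% interval -0.75 to -0.03, adjusted p = 0.416, edgeR). It was the one of the 10 with an unadjusted p under 0.05 there, where 11.4% of all genes had one, and neither edgeR (0% of all genes) nor DESeq2 (1.4%) called any of the 10. None of the 10 had En1+/- libraries all apart from the WT libraries over both strains, as 0.76% of all genes had.

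**Figure D4:**
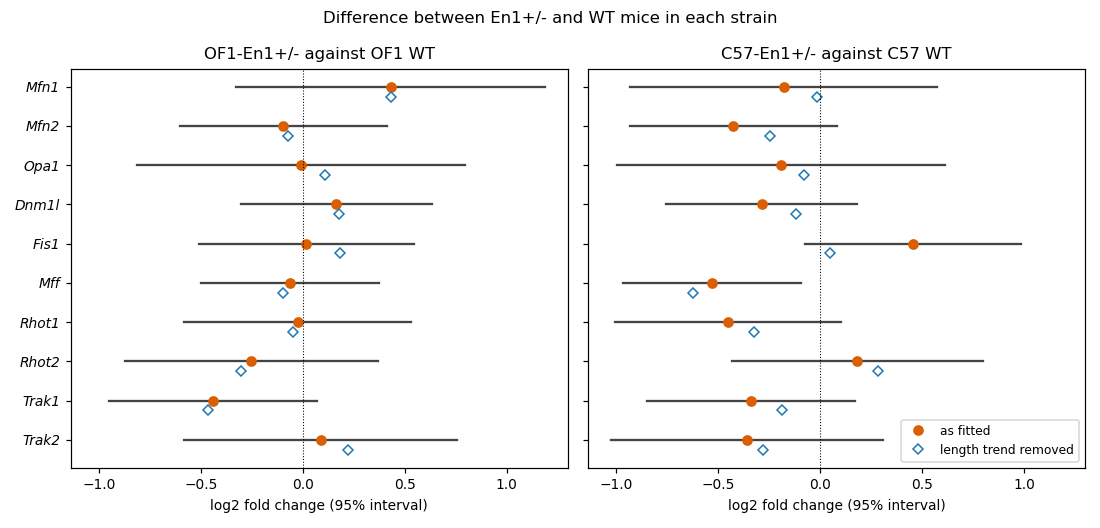
Log2 fold change of each gene between En1+/- and WT mice in OF1 (left) and C57 mice (right), as fitted by edgeR with 3 mice per group (filled points, with 95% intervals as lines) and with the length trend of each library removed (open diamonds). In C57 mice the estimate of *Fis1* is 0.45 as fitted and 0.05 without the trend, and that of *Mff* is -0.53 as fitted and -0.62 without it.

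Between the strains, none of the 10 genes was called. edgeR called 0 of the 10 and 1.02% of all genes between OF1 WT and C57 WT mice, 0 of the 10 and 0.966% between OF1-En1+/- and C57-En1+/- mice, and 0 of the 10 and 2.01% over both genotypes. DESeq2 called 0 of the 10 and 2.56, 2.49 and 3.67% of the genes it adjusted, and 0 of the 10 had an unadjusted p under 0.05 in any of the 3, against 8.54, 8.13 and 8.59% of all genes. None of the 10 had groups that did not overlap between OF1 WT and C57 WT mice, where 14.8% of all genes had, or over both genotypes. The median log2 fold change of the 10 genes between OF1 WT and C57 WT mice was -0.16, and 0.10 without SW7. *Mfn1* was lowest in OF1 WT mice by estimate. At 1368, 439 and 1132 in OF1 WT mice, against 1717, 1863 and 1337 in C57 WT mice, its log2 fold change was -0.74 (SE 0.35, 95% interval -1.50 to 0.01, adjusted p = 0.590, edgeR), and -0.39 without SW7.

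*Dnm1l* was the one gene of the 10 whose groups did not overlap in a comparison of strains, where 13.2% of all genes did not, including 6.41% of all genes with higher values in OF1-En1+/- mice. It had 11946, 11996 and 10887 in OF1-En1+/- mice, against 9207, 9137 and 9857 in C57-En1+/- mice. The log2 fold change was 0.30 (SE 0.22, 95% interval -0.16 to 0.77, adjusted p = 0.811, edgeR). Over both genotypes, the estimates of *Mfn2*, *Opa1*, *Dnm1l*, *Fis1*, *Mff*, *Rhot1*, *Rhot2*, *Trak1* and *Trak2* between OF1 and C57 mice lay between -0.15 and 0.19.

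Apart from *Fis1* and *Rhot2*, most of the genes went up and down together across the 12 libraries, whatever their role. Over the 36 pairs without *Fis1*, Pearson's r of log2 expression had a median of 0.66 and was above 0 in 35, and over the 9 pairs with *Fis1* the median was -0.72, with 1 above 0. For *Rhot2* the pairs without *Fis1* had r between -0.16 (with *Mff*) and 0.43 (with *Mfn2*), and *Mfn1* with *Trak1* had 0.18. The share of all gene pairs with r above 0 was not computed. The points share library, depth and normalization, and these values are a description. The protein-coding gene most like each member over the 12 libraries, of 13154 searched, was *Mapk9* for *Mfn2* (r = 0.94), *Cltc* for *Opa1* (0.93), *Fbh1* for *Dnm1l* (0.97), *Rpl19* for *Fis1* (0.96), *Parp6* for *Mff* (0.96), *Plaa* for *Rhot1* (0.96), *Sars2* for *Rhot2* (0.90), *Adar* for *Trak1* (0.97), *Slc4a10* for *Trak2* (0.95) and *A630089N07Rik* for *Mfn1* (0.94).

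The libraries also differed in how levels ran with transcript length. For each library, genes tested were split by effective length into quartiles, and the median deviation of the shortest quartile from the gene means over libraries was subtracted from that of the longest. The difference, on the log2 scale, was 0.03, 0.08 and -0.31 in SW21, SW22 and SWB (OF1-En1+/-), against 0.24 in SW31, -0.47 in SW7 and 0.02 in SWG (OF1 WT). It was -0.15, -0.46 and 0.22 in C5713, C572 and C575 (C57-En1+/-), against 0.28 in C5710, 0.50 in C572S and 0.09 in C5743 (C57 WT). Long transcripts were thus low in SW7, C572 and, less so, SWB, and high in C572S.

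The relation to this difference had an adjusted permutation p under 0.05 in 9 of the 10 genes by Pearson's r and in 7 of the 10 by Spearman's rho. The share of all genes tested with such a relation was not computed, so these counts do not set the 10 genes apart from other genes. *Fis1*, with a mean effective length of 526 bases the shortest of the 10, followed this difference inversely. Pearson's r was -0.97 (permutation p = 2e-05, adjusted over the 10 genes 0.0002) and Spearman's rho -0.99 (permutation p = 1e-05, the smallest that 100000 permutations can give, adjusted 0.0001). Without SW7 and C572, the libraries farthest from the median, r was -0.94, and within strains it was -0.996 in OF1 and -0.955 in C57 mice. *Trak2*, the longest at 5845 bases, had r = 0.88 (permutation p = 0.0002, adjusted 0.0009) and rho = 0.75 (permutation p = 0.007, adjusted 0.025), and 0.76 without SW7 and C572, 0.98 in OF1 and 0.95 in C57 mice.

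For *Mfn2* r was 0.78 and rho 0.68 (permutation p = 0.003 and 0.02, adjusted 0.01 and 0.031), and r was 0.68 without SW7 and C572, 0.93 in OF1 and 0.64 in C57 mice. For *Mff* r was 0.75 and rho 0.73 (permutation p = 0.005 and 0.01, adjusted 0.01 and 0.025), and r was 0.45 without SW7 and C572, 0.68 in OF1 and 0.82 in C57 mice, so that part of its relation rested on those libraries. For *Dnm1l* r was 0.68 and rho 0.63 (permutation p = 0.01 and 0.03, adjusted 0.016 and 0.046), and with r at 0.33 without SW7 and C572 its relation rested on them, beside 0.84 in OF1 and 0.73 in C57 mice. For *Rhot1* both were 0.73 (permutation p = 0.006 and 0.01, adjusted 0.01 and 0.025), and r was 0.52 without SW7 and C572, 0.81 in OF1 and 0.72 in C57 mice. For *Trak1* r was 0.72 and rho 0.71 (permutation p = 0.008 and 0.01, adjusted 0.012 and 0.025), and r was 0.66 without SW7 and C572, 0.61 in OF1 and 0.90 in C57 mice. *Opa1* and *Mfn1* passed by r alone. For *Opa1* r was 0.72 and rho 0.55 (permutation p = 0.006 and 0.07, adjusted 0.01 and 0.079), and r was 0.67 without SW7 and C572, 0.92 in OF1 and 0.65 in C57 mice. For *Mfn1* r was 0.58 and rho 0.57 (permutation p = 0.04 and 0.06, adjusted 0.043 and 0.074), and r was 0.63 without SW7 and C572, 0.80 in OF1 and 0.32 in C57 mice. *Mff* is the second shortest of the 10, at 1248 bases, and yet moved with the long genes. *Rhot2* passed by neither (r = -0.05, rho = -0.14, permutation p = 0.9 and 0.7, adjusted 0.88 and 0.67), with 0.09 without SW7 and C572, 0.69 in OF1 and -0.52 in C57 mice. The levels of the genes are themselves among those that make up the length difference.

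**Figure D5:**
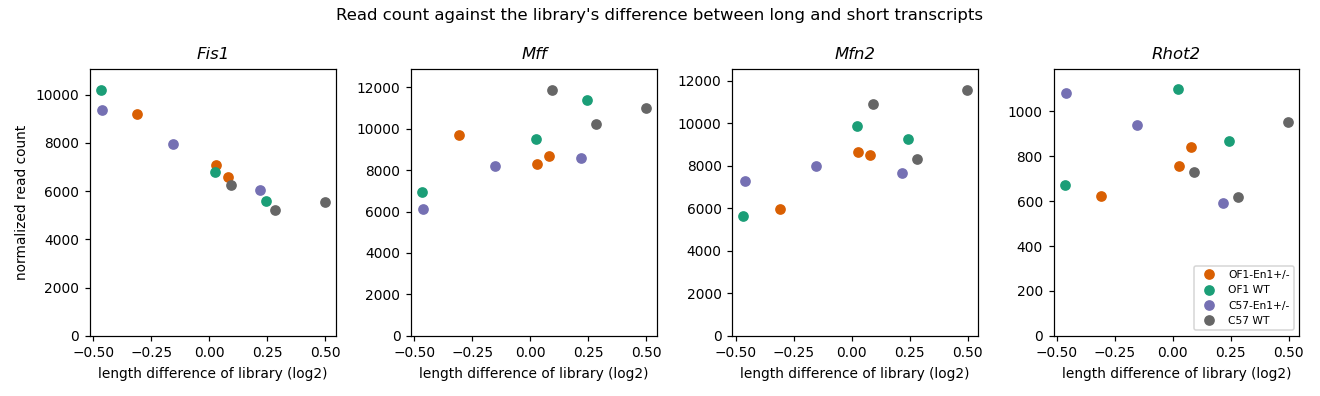
Normalized read count (vertical axes from 0) of *Fis1*, *Mff*, *Mfn2* and *Rhot2* against the difference in deviation between the longest and shortest quartiles of genes in each library (log2, horizontal axes), for the 12 libraries (points, coloured by group). *Fis1* falls along the axis (r = -0.97) and *Mfn2* climbs (r = 0.78), while *Rhot2* has r = -0.05.

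With the length trend of each library removed, an alternative added after seeing the data, the median log2 fold change of the 10 genes between C57-En1+/- and C57 WT mice was -0.15. The estimate of *Fis1* was 0.05, of *Dnm1l* -0.12, of *Mfn2* -0.25 and of *Rhot1* -0.33. That of *Mff* was -0.62 (SE 0.22, adjusted p = 0.680, edgeR). *Trak1* stood at -0.33 over both strains (SE 0.13, adjusted p = 0.366, edgeR). Reads of the mitochondrial genome, between 3.85 and 5.50% of the library in C57-En1+/- and between 2.33 and 3.03% in C57 WT mice, also moved with this comparison, as did the sum of 6 oligodendrocyte marker genes in 1 library (3208.5 TPM in C572, and at most 703 in the other C57 libraries). Their part in the result was not tested.

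Related genes were read from 5 lists. Of 12 regulators of fission, led by *Mtfr1l* at 117 TPM, 0 were called in any comparison by edgeR, and in the C57 genotype comparison 6 had higher and 6 lower estimates in En1+/- mice (median log2 fold change 0.04). Of 12 regulators of fusion, led by *Phb1*, a scaffold of the inner membrane, at 235 TPM, 0 were called, with 5 higher and 7 lower estimates (median -0.16). Of 9 general mitochondrial genes, led by the channel gene *Vdac1* at 381 TPM, 0 were called, with 7 higher and 2 lower estimates (median 0.20). At an unadjusted p under 0.05 there were 2, 1 and 2 genes of these lists in that comparison, where 8.89% of all genes had one, 50.3% had higher and 49.6% lower estimates and the median was 0.00.

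The MICOS complex shapes the cristae of the inner membrane, and all 7 of its genes had higher estimates in C57-En1+/- mice when set against C57 WT, as had 50.3% of all genes. The median of their log2 fold changes was 0.44, but 0 of the 7 and 0% of all genes were called by edgeR, and 2 of the 7 and 8.89% of all genes had an unadjusted p under 0.05. *Micos10*, the highest at 890 TPM, had normalized counts of 7383, 12164 and 5647 in C57-En1+/- mice, against 5116, 4104 and 5191 in C57 WT mice. Its groups did not overlap, as those of 14.4% of all genes did not, and the log2 fold change was 0.81 (SE 0.26, adjusted p = 0.520, edgeR). With the length trend removed it was 0.17, the median of the list was 0.17 and 6 of 7 estimates were higher.

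Of 17 genes for motors and anchors, led by the kinesin adaptor gene *Fez1* at 486 TPM, 16 were tested, and in C57-En1+/- against C57 WT mice 5 had higher and 11 lower estimates (median -0.23), against 50.3% higher and 49.6% lower of all genes. Of the 16, 0 were called by edgeR and 4 had an unadjusted p under 0.05, where 8.89% of all genes had one. Over the 5 lists, *Kif5b* alone was called in any comparison, by edgeR and by DESeq2. That is 1 called among the tested genes of all 5 lists, 16 of them for motors and anchors. For strain over both genotypes, edgeR called 2.01% of all genes and DESeq2 3.67% of the genes it adjusted, so 1 call does not set the lists apart. *Kif5b* encodes a heavy chain of kinesin-1, the motor to which the TRAK adaptors bind, and it was lower in OF1 than in C57 mice. Its normalized counts were 2853, 2785 and 2949 in OF1-En1+/- and 3333, 2379 and 2442 in OF1 WT mice, against 3657, 3828 and 3820 in C57-En1+/- and 4835, 4612 and 4352 in C57 WT mice. No OF1 library reached any C57 library, which holds for 2.33% of all genes tested, including 0.932% with lower values in OF1 mice.

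Over both genotypes the log2 fold change of *Kif5b* was -0.58 (SE 0.11, adjusted p = 0.019, edgeR). It was -0.76 between OF1 WT and C57 WT mice (SE 0.16, adjusted p = 0.0507) and -0.40 between OF1-En1+/- and C57-En1+/- mice (SE 0.16, adjusted p = 0.542). With DESeq2 the first of these had an adjusted p of 7.55e-05 and the WT comparison one of 0.000408. The call over both genotypes was lost without SWG (adjusted p = 0.0703), SW21 (0.0563), SW22 (0.0637), C5710 (0.0624) or C572S (0.0505), without SW22 and C572S together (0.121) and with offsets for transcript length (log2 fold change -0.44, adjusted p = 0.19), and the log2 fold change lay between -0.66 and -0.44 in every alternative. The other kinesin-1 heavy chain genes *Kif5a* and *Kif5c* had 0.12 (SE 0.22, adjusted p = 0.991) and -0.02 (SE 0.16, adjusted p = 1) over both genotypes.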

How the data were processed

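RNA of tissue cut as nigra from 12 mice was sequenced with paired-end reads. Salmon was run by the authors on GRCm39 transcripts (quasi-mapping with a correction for GC content), on an earlier GENCODE release than the one used here. They deposited estimated counts, TPM and effective lengths in bases for each transcript of each library. By identifier, 139555 of 140790 transcripts (99.1%) matched GENCODE mouse release 39, which gave names and exons. Transcript counts were added up by gene, rounded, and tested with the quasi-likelihood test of edgeR 4.0.16 (limma 3.58.1, R 4.3.3; TMM factors, 1 mean per group, all 12 libraries), if the normalized count averaged at least 10. DESeq2 1.42.0, a tool the authors also used, was an alternative. Adjusted p are by Benjamini-Hochberg over all genes tested, with a threshold of 0.05. Intervals cover the spread between mice.

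Transcript usage was tested with diffSpliceDGE on 33017 transcripts of 9771 genes. The share of an exon is the summed TPM of all transcripts annotated with it over that of the gene, short fragments included. Alternative coding exons were those skipped by another transcript with at least 1% of the reads of the gene. The fits were tested on simulated data, and plots and summaries used Python 3.11.15 (numpy 2.4.6, pandas 2.3.3, matplotlib 3.10.9, scipy 1.17.1).

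The members and lists were chosen with earlier results of these data known. Named are all 10 members, transcripts with at least 10% of their reads, the most abundant gene and the called genes of each list, and the protein-coding gene most like each member (normalized count averaging at least 50). *Micos10* values, *Kif5a*, *Kif5c* and the overlapping genes were added after their values were seen. No libraries of 1 group were alike within sampling noise. Alternatives were DESeq2, DESeq2-type size factors in edgeR, all genes with a count above 0, offsets for transcript length, library sizes without the mitochondrial genome, protein-coding genes only, omission of SW22 with C572S, omission of each library, transcripts averaging at least 50 counts for usage, and, added after seeing the data, removal of the length trend of each library.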

Additional observations from a re-analysis of the deposited data

How the results depend on the processing

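None of the 10 genes was called in expression in any comparison under any alternative run. Nor was any called in transcript usage, which was tested for strain over both genotypes and for genotype over both strains. Of 1400 log2 fold changes of single genes under the alternatives, 1308 kept their sign and 92, none of them called, took the other sign. Under the 20 alternatives the estimate of *Mff* between C57-En1+/- and C57 WT mice lay between -0.63 and -0.42, with adjusted p (edgeR or DESeq2) between 0.285 and 0.978. The count of all genes called depended on the tool. With DESeq2 the count was 202 for OF1-En1+/- against OF1 WT, 74 for C57-En1+/- against C57 WT, 456 between OF1 WT and C57 WT, 444 between OF1-En1+/- and C57-En1+/- mice, 42 for the interaction, 653 for strain and 240 for genotype, where edgeR called 0, 0, 183, 174, 0, 362 and 0. With protein-coding genes only, edgeR called 67 between OF1 WT and C57 WT, 51 between OF1-En1+/- and C57-En1+/- mice and 165 for strain. Without SW22 and C572S it called 106 between OF1 WT and C57 WT, 109 between OF1-En1+/- and C57-En1+/- mice, and 1 each for OF1-En1+/- against OF1 WT and for genotype. Without SW22 alone it called 113 between OF1-En1+/- and C57-En1+/- mice, without SW7 3 between OF1-En1+/- and OF1 WT mice and 1 each for the interaction and for genotype, and without C572S 1 each between C57-En1+/- and C57 WT mice and for the interaction. No paired analysis was possible because the labels give no replicate numbers that groups share.

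The limits are the 3 mice per group, the dopaminergic marker sums, between 9.73 and 93.7 TPM in 10 libraries and at least 6464 TPM in the other 2, the length trend of the libraries, their uneven depth, exon structures taken from a later annotation than the one quantified, and short reads divided between transcripts by estimation. Depth was lower in the OF1 groups and in C57-En1+/- mice than in C57 WT mice. It was between 20030280 and 37754338 estimated reads in C57-En1+/- mice and between 61433970 and 168741283 in C57 WT mice, without overlap. The part of depth in the C57 genotype comparison was not tested.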

Other observations

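Single libraries departed from the usual split between transcripts. *Mfn1-202* held 0% of the estimated reads of *Mfn1* in OF1 WT mouse SW7 and 1.52% in C57-En1+/- mouse C5713, and between 20.2 and 42.7% in the other 10 libraries. *Fis1-202* held 50.5% of those of *Fis1* in OF1-En1+/- mouse SWB and between 27.6 and 35.5% in the other 11 libraries. The *Opa1* 54-base exon was at 0% of TPM in OF1 WT mice SW31 and SW7 and up to 11.2% in OF1-En1+/- mouse SW22.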
